A study of Mus musculus with 7 samples.

Results

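Alveolar macrophages of the mouse, which patrol the lung airspaces and engulf particles, were profiled by poly(A) RNA sequencing, and the genes described here build and remodel their actin cytoskeleton. The set was drawn by name from the protein-coding genes of the expression table. It took Arp2/3 subunits named Arpc, Actr2 or Actr3, the coronins, capping proteins, tropomyosins 1 to 4, twinfilins and myosins matching Myo1 or Myo9. With them came 14 further actin genes such as Actb, Cfl1 and Lcp1. By this rule 57 of the 47643 genes were members, and 21971 of the 47643 were protein-coding. The myosin pattern was not closed at its end, so it also took 7 myosins of other classes (Myo10, Myo15, Myo15b, Myo16, Myo18a, Myo18b and Myo19). Of the 57 members, 45 reached a mean of 1 TPM over the 7 libraries and were tested, 12 did not, and 2 of these 12 (Capza3 and Myo16) were listed at 0 in every library.

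The cells came from lung and were sorted, per the labels, on CD11c, F4/80 and SiglecF. A first group of 3 libraries was labelled WT. A second group of 3 libraries carried floxed Siah1a and Siah2 with Cre at Lyz2, the lysozyme M gene active in myeloid cells (cSiah1a/2f/f::Lyz2cre, called Lyz2cre here). A single library carried the same floxed alleles with Cre driven from CD11c, the integrin chain encoded by Itgax (cSiah1a/2f/f::CD11ccre, called CD11ccre). Siah1a and Siah2 are E3 ubiquitin ligases of the RING type. The study asked what their joint deletion does to alveolar macrophages. No treatment is given in the labels of these samples, the animals' age and sex are not given in the labels, and nothing says whether WT animals carried floxed alleles or a Cre. Nothing states that replicates were separate animals either, so the spread behind each p-value is that between libraries and may be technical.

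Actin filaments grow by adding profilin-bound monomers to their fast-growing ends. The Arp2/3 complex, switched on by WASP and WAVE proteins, starts new filaments as branches on the sides of old ones, and this branched network pushes out the lamellipodia and phagocytic cups with which macrophages engulf particles. Coronins bind both filaments and the Arp2/3 complex and help take branches apart, while cofilin severs filaments, capping proteins stop their growth and tropomyosins and myosins stabilise and pull on them.

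Values are TPM, a length-scaled share of each library, so levels may be compared between genes but the depth behind them is unknown and no counting interval can be given. The targeted genes followed the labels: Siah1a stood at 6.72 to 16.6 TPM in WT and at 0 to 0.05 TPM in the 4 Cre libraries, and Siah2 at 12.7 to 17.3 TPM against 1.21 to 1.95 TPM. The libraries differed in make-up. The iron-storage genes Ftl1 and Fth1 with the chitinase-like Chil3 took 4.90% to 5.29% of the TPM in WT, 14.4% to 16.3% in Lyz2cre and 14.0% in CD11ccre, and mitochondrially encoded genes took 7.54% to 9.25%, 2.67% to 4.61% and 4.23%. Lyz2 stood at 50676 TPM in CD11ccre (5.07% of the library), but at 72.6 to 86.3 TPM in WT and 46.6 to 61.9 TPM in Lyz2cre, so at this locus the libraries labelled WT were low like Lyz2cre, and their Cre status is not known. Because TPM are shares, the median log2 fold change of all 11397 tested genes was -0.16 for Lyz2cre against WT and -0.29 for CD11ccre against WT, and changes are also given relative to these medians. Fold changes on the log2(TPM + 1) scale understate the change of low genes. The part of library make-up in the differences reported here was not tested beyond the rescalings named beside them.

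The 10 alveolar macrophage markers were all above 1 TPM in WT, but some of their levels differed between genotypes: by limma 4 were called higher in Lyz2cre (Marco, Chil3, Fabp4 and Car4) and 1 lower. The lower one was Siglecf, which encodes a sorting marker, at 211 to 257 TPM in WT, 65.5 to 107 in Lyz2cre and 53.9 in CD11ccre (log2 fold change -1.46, limma adjusted p = 0.00746, and -2.08, 0.0136). Markers of T and NK cells, which also express Coro1a, summed to 0 to 3.46 TPM in WT and to 0 in all 4 Cre libraries (6 markers, Klrb1c at 0 throughout). The 5 B and plasma cell markers summed to 4.84 to 18.3 TPM across WT, 0.12 to 1.26 across Lyz2cre and 0.44 in CD11ccre. Igkc, the only 1 of them tested, was called lower in Lyz2cre. Smooth muscle and fibroblast markers, whose cells are rich in tropomyosins, summed to 10 to 15.9, 8.21 to 11.0 and 15.6 TPM (10 markers, Myh11 at 0). Neutrophil markers summed to 43.5 to 90.8, 101 to 133 and 99.6 TPM (6 markers, Ly6g at 0). Within that list S100a8 was called higher in Lyz2cre (15.6 to 32.9 TPM in WT, 80.9 to 127 in Lyz2cre), Csf3r was called lower (17.2 to 26.0 against 5.36 to 11.1 TPM), and S100a9 lay at 10.7 to 37.9 against 1.16 to 6.9 TPM without a call, so the sum does not describe the list as a whole. The summed levels of dendritic cell markers, among them the member Fscn1, came to 7.93 to 10.1, 5.64 to 11.4 and 4.52 TPM, and the 5 endothelial markers to at most 1.35 TPM. Alveolar epithelial markers summed to 29.8 to 39.4, 37.2 to 60.6 and 43.7 TPM. Within them Sftpc lay at 12.8 to 23.8 TPM in WT and 19.4 to 37 in Lyz2cre. Ager went the other way, at 2.51 to 7.26 against 1.26 to 1.34 TPM, and neither was called. Airway markers summed to 380 to 548, 146 to 365 and 309 TPM. Of these Tppp3 was called lower in Lyz2cre (200 to 386 TPM in WT, 55.9 to 113 in Lyz2cre). Scgb1a1 lay at 105 to 186 against 85.0 to 254 TPM without a call, so neither sum describes its list as a whole. Erythroid and platelet markers summed to 5.89 to 16.9, 6.32 to 11.9 and 3.62 TPM. The part of these cells in the differences below was not tested, and in bulk RNA fewer cells of a type and less RNA per cell cannot be told apart.

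In Lyz2cre macrophages 7 actin-network genes fell and none rose. All 7 belonged to 2 roles: the coronins Coro1a, Coro2a and Coro6, and the Arp2/3 subunits Actr3, Arpc5, Arpc3 and Actr2. The 2 actins, the filament bundler Lcp1 and the cofilin Cfl1 did not pass the test. This limit to 2 roles depended on the scaling. With protein-coding genes rescaled without mitochondrial genes 16 members were lower, among them Cfl1, Pfn1, Vasp, Tpm3 and Tpm4 of other roles. The median log2 fold change was -0.25 for Arp2/3 genes, -0.23 for coronins and -0.49 for the 3 tested tropomyosins, against -0.16 for all tested genes. By limma on log2(TPM + 1) with Benjamini-Hochberg adjustment over all genes, 7 of 45 tested members were lower, 0 were higher and 38 were not called at an adjusted p below 0.05. Among all tested genes 4.60% were lower and 2.17% higher. At an unadjusted p below 0.05, 17 members were lower and 1 was higher, with 24.6% of all tested genes passing that level in either direction. The median log2 fold change of the 45 members was -0.19, against -0.16 for all tested genes, so the members as a whole lay close to the general shift. With median-of-ratios scaling, which moves the median of all genes to 0.00, 3 members were lower (Coro1a, Coro2a and Arpc5) and 1, the myosin Myo1f, was higher. The calls of Actr2, Actr3, Arpc3 and Coro6 ended under that scaling, and also with no filter on low values, without the mean-variance trend and without Ftl1, Fth1, Chil3 and Lyz2.

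**Figure D1:**
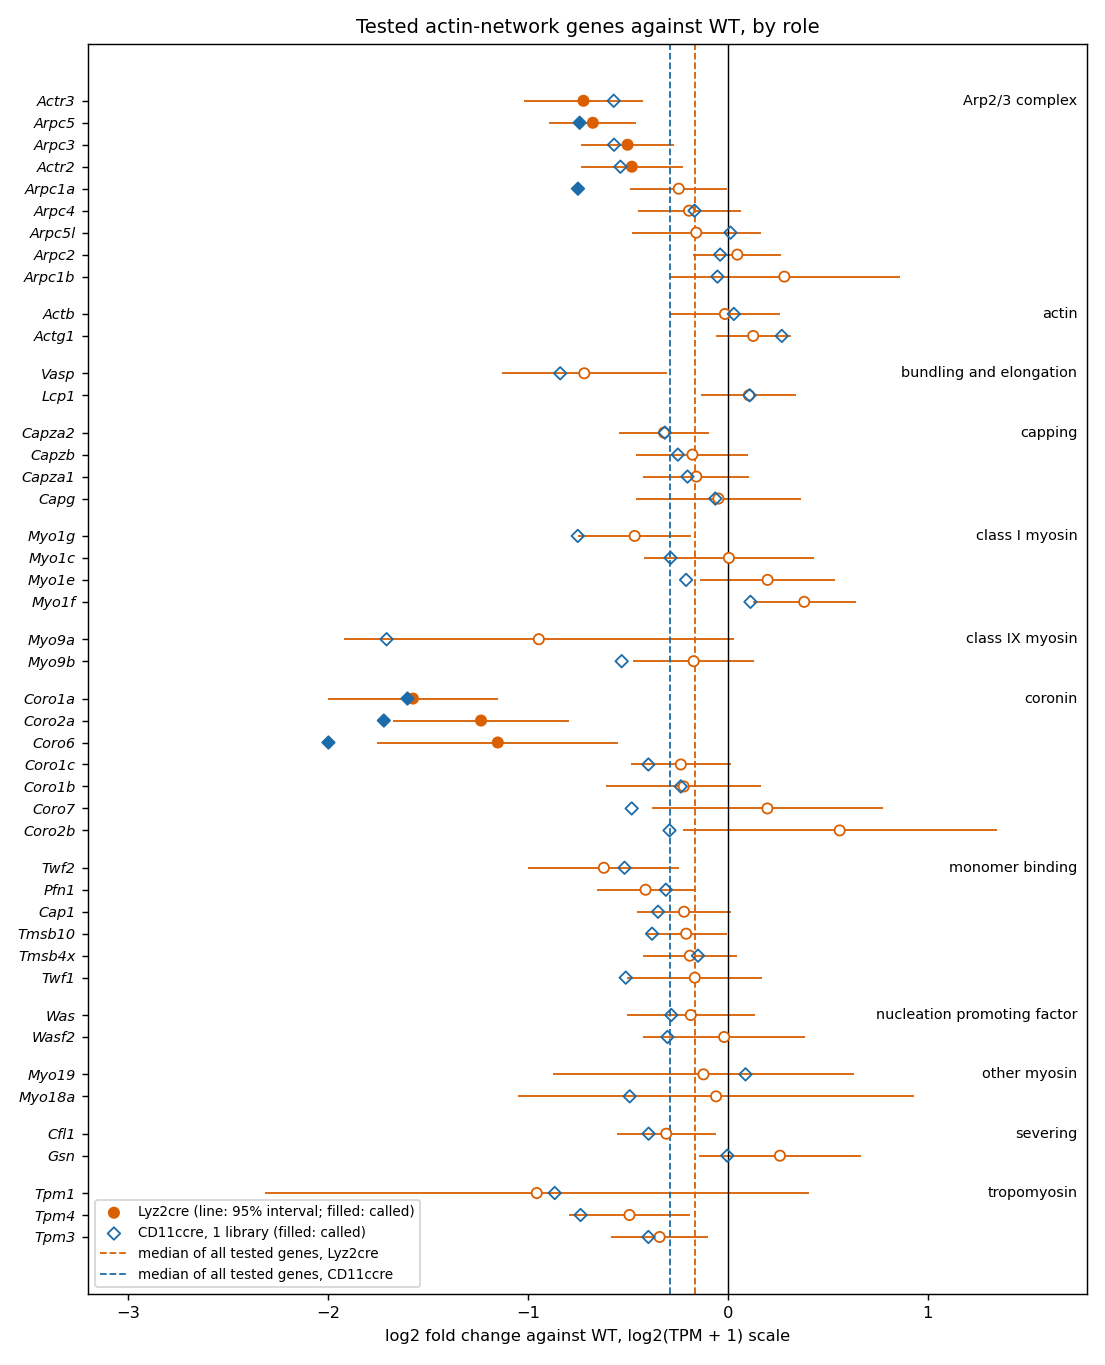
Log2 fold change against WT on the log2(TPM + 1) scale (x axis) for the 45 tested genes grouped by role (y axis). Circles are Lyz2cre with 95% intervals, diamonds the 1 CD11ccre library, and filled symbols are called in the fit without rescaling. Dashed lines mark the medians of all tested genes, -0.16 and -0.29. In that fit filled symbols lie only among the coronins and the Arp2/3 subunits.

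Taken library by library, 20 of the 45 members were lower in all 3 Lyz2cre libraries than in any WT library, and 2, Actg1 and Myo1f, were higher in all 3. Over all tested genes these shares were 23.3% and 7.45%. The members together took 4.32% to 4.69% of the TPM in WT, 3.91% to 4.10% in Lyz2cre and 4.05% in CD11ccre.

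The DNA just upstream of 5 of the genes called lower in Lyz2cre is shown, the 4 Arp2/3 genes and Coro1a. Whether these stretches bear on the lower levels was not tested. Each stretch ends at the base before the RefSeq start site in the table of build GRCm38.p6, reads 5′ to 3′ on the gene's strand, and is cut where an annotated exon begins. Capitals mark GGGCGG (the GC box bound by SP factors) and CCGGAAG (a core bound by ETS factors), searched on both strands, so CCGCCC and CTTCCGG are the same motifs read from the other strand. The stretches are chr1:152766352-152766541 (plus strand) for Arpc5, chr1:125435728-125435977 (minus) for Actr3, chr11:20112952-20113201 (minus) for Actr2, chr5:122391628-122391877 (plus) for Arpc3 and chr7:126704817-126705066 (minus) for Coro1a, whose stretch lies within an intron of a longer Coro1a transcript in GENCODE M21.
Arpc5 promoter: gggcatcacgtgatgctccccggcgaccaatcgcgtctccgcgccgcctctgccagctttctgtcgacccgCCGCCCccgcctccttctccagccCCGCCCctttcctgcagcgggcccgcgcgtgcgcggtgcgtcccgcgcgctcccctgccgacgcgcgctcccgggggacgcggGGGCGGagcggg
Actr3 promoter: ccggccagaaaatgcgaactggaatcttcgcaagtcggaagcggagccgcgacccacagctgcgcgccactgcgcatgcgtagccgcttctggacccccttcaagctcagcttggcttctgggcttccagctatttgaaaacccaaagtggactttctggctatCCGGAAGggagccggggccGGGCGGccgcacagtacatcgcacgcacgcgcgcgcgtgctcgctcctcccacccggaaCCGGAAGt
Actr2 promoter: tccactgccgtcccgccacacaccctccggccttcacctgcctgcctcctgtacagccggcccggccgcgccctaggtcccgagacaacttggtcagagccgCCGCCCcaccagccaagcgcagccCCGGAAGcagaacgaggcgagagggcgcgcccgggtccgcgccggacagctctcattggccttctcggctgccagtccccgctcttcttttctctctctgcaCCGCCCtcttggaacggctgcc
Arpc3 promoter: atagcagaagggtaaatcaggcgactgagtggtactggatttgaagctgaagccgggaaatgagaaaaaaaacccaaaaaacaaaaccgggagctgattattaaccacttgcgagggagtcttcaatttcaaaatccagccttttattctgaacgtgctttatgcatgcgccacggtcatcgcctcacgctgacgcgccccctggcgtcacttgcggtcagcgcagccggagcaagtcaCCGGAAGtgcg
Coro1a promoter: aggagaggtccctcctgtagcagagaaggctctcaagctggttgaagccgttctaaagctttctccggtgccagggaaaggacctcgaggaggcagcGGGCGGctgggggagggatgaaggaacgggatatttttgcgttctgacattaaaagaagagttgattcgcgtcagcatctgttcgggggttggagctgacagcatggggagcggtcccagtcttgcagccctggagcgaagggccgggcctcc
Matched by symbol, 49 of the 57 members had an entry among the RefSeq start sites used here, with 63 windows of 250 bases. GGGCGG stood in 58.7% of these windows and in 32.7% of all 32851 windows of the same length, and 6 of the 8 genes called lower in either line had it (Actr2, Actr3, Arpc5, Coro1a, Coro2a and Coro6), as did 21 of the 33 other tested members with an entry. CCGGAAG stood in 17.5% of member windows against 6.91% of all windows. Counted by gene, it stood in 4 of the 8 (the Arp2/3 genes Actr2, Actr3, Arpc1a and Arpc3) and in 7 of the 33. The shares over all windows were not limited to genes tested here, and no difference in motif share was tested. The CArG box of serum response factor stood in 4.76% against 1.47% and in none of the 8. In all 11 motifs were searched, the others being GAGGAA (the PU.1 core), CCAAT (the CCAAT box), TGANTCA (AP-1), TGACGTCA (the cyclic AMP element), TGANNNNGC (the antioxidant element), GGAATG (TEAD), AAGATGGC (YY1) and the NRF1 motif, and motifs were allowed to overlap. These other 8 stood in 0% to 33.3% of member windows and in 0.782% to 35.2% of all windows. A match describes letters in the window only.

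The 3 largest called falls on the log2 scale were all coronins. Coro1a, the coronin of leukocytes (ENSMUSG00000030707, chr7:126699773-126707787), stood at 507, 508 and 429 TPM across the WT libraries, 203, 163 and 125 across Lyz2cre and 157 in CD11ccre. The groups did not overlap, and all 4 Cre libraries lay below every WT library. Mean TPM was 481 ± 45.7 (SD, n = 3) in WT and 164 ± 39.1 (SD, n = 3) in Lyz2cre, 2.94-fold lower. The log2 fold change was -1.57 ± 0.18 (SE, limma adjusted p = 0.00563), or -1.41 relative to the median of all genes. The call held in all 16 alternative settings. Coro1a overlaps Bola2 on the opposite strand, and how the authors set strand is not given in the sources used here. Bola2 stood at 143, 194 and 144 TPM across the WT libraries, 122, 172 and 82.1 across Lyz2cre and 85.1 in CD11ccre, and did not pass the test (log2 fold change -0.40, limma adjusted p = 0.402).

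Coro2a, a coronin known as a component of a nuclear co-repressor complex (chr4:46536937-46602202), stood at 23.6, 28.7 and 31.8 TPM across the WT libraries, 12.7, 12.3 and 9.08 across Lyz2cre and 7.75 in CD11ccre. All 4 Cre libraries lay below every WT library. It was 2.47-fold lower in Lyz2cre, with a log2 fold change of -1.23 ± 0.19 (SE, limma adjusted p = 0.0129), which no longer passed in 1 case of the 16, without WT replicate 2 (adjusted p = 0.0518). Coro6, a member of the same coronin class as Coro1a (chr11:77462411-77470484), stood at 13.6, 11.5 and 21.3 TPM across the WT libraries, 7.56, 5.71 and 5.44 across Lyz2cre and 2.99 in CD11ccre. These groups did not overlap either, with the WT libraries spread more widely than the Lyz2cre ones. Its log2 fold change was -1.15 ± 0.26 (SE, limma adjusted p = 0.0434), and it no longer passed when 1 of the 6 replicated libraries was dropped, whichever it was (adjusted p = 0.0605 to 0.141), nor under median-of-ratios scaling (0.077).

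The other 4 coronins were not called. Coro1b, the coronin best known for debranching Arp2/3 networks and the one with the highest mean TPM here, stood at 416, 348 and 280 TPM across the WT libraries, 308, 323 and 258 across Lyz2cre and 292 in CD11ccre, and its groups overlapped (log2 fold change -0.22 ± 0.17, SE, limma adjusted p = 0.462). Coro1c lay at 92.2 to 97.7 TPM in Lyz2cre against 103 to 120 TPM in WT, without overlap. Coro7, which acts at the Golgi, and Coro2b had log2 fold changes of 0.20 and 0.56 with overlapping groups. In sum the 7 coronins made up 892 to 1112 TPM across WT, 526 to 673 across Lyz2cre and 565 in CD11ccre. The mean sum was 1013 TPM in WT and 609 in Lyz2cre, and Coro1a alone had means of 481 and 164, so the sum mostly followed Coro1a. Coro1a was the most abundant coronin in each of the 3 WT libraries but lay below Coro1b in all 4 Cre libraries.

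**Figure D2:**
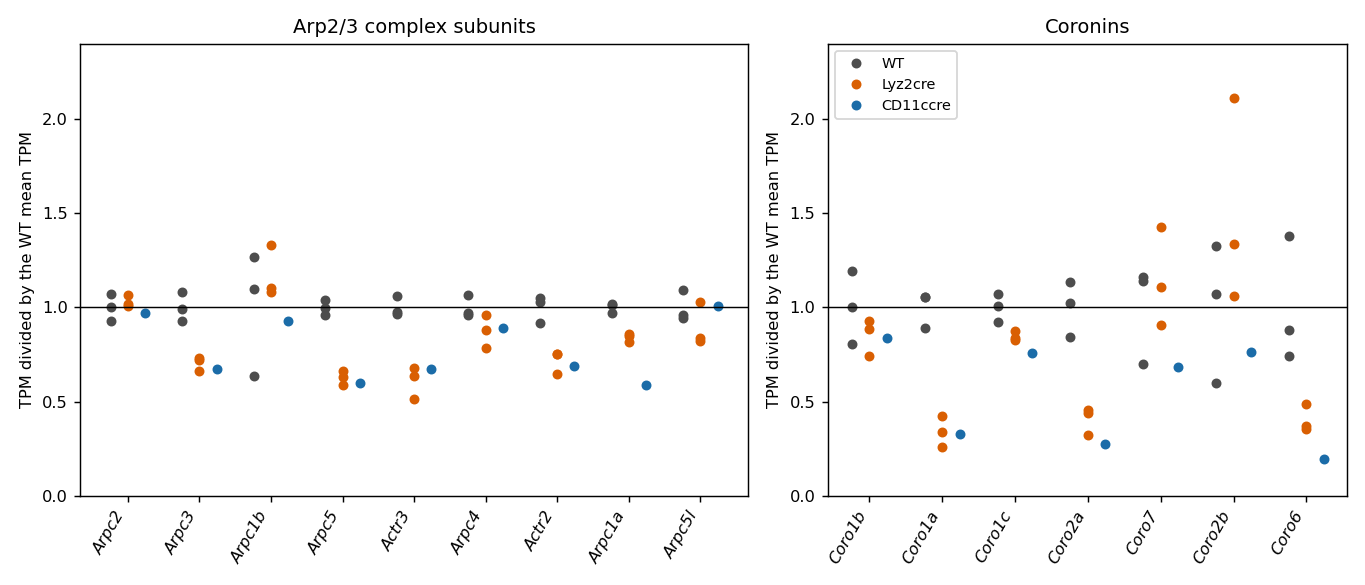
TPM of each library divided by the WT mean TPM of the gene (y axis), 1 point a library. The x axis holds the 9 Arp2/3 genes of the set and the 7 coronins, by falling mean TPM. All Cre libraries lie below all WT libraries for Coro1a, Coro2a, Coro6, Actr3, Arpc5, Arpc3 and Actr2. The same holds for Arpc1a and Coro1c, which were not called in Lyz2cre. Arpc2, Arpc1b, Arpc4, Arpc5l, Coro1b, Coro7 and Coro2b overlap.

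The Arp2/3 complex has 7 subunits. In the set 2 of them have alternative forms, Arpc1a or Arpc1b and Arpc5 or Arpc5l. Any alternative form outside the name rule was not covered. All 9 Arp2/3 genes of the set were tested: 4 fell, none rose and 5 were not called. The summed level of the 9 was 4631 to 5128 TPM across WT, 3855 to 4066 across Lyz2cre and 3742 in CD11ccre. Actr3 (Arp3) and Actr2 (Arp2) form the pair of actin-like subunits from which a branch grows. Actr3 (chr1:125392905-125435727) stood at 695, 756 and 689 TPM across the WT libraries, 485, 365 and 455 across Lyz2cre and 480 in CD11ccre. Its groups did not overlap and its log2 fold change was -0.72 ± 0.13 (SE, limma adjusted p = 0.0206), 1.64-fold lower in mean TPM. The call ended without WT replicate 1 (adjusted p = 0.0602), WT replicate 2 (0.0747) or Lyz2cre replicate 3 (0.0682), and with median-of-ratios scaling (0.0709).

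Actr2 (chr11:20062304-20112913) stood at 395, 353 and 403 TPM across the WT libraries, 288, 249 and 288 across Lyz2cre and 264 in CD11ccre. The lowest WT library lay above the highest Cre library. Its log2 fold change was -0.48 ± 0.11 (SE, limma adjusted p = 0.0452), which missed the threshold whenever 1 WT or Lyz2cre library was dropped (adjusted p = 0.0749 to 0.119) and under median-of-ratios scaling (0.188).

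Arpc5, the smallest-subunit gene of the complex (chr1:152766542-152775597), stood at 727, 699 and 759 TPM across the WT libraries, 482, 428 and 458 across Lyz2cre and 435 in CD11ccre. Its libraries lay closer together within groups than those of Actr3, and the groups did not overlap. It was 1.60-fold lower, with a log2 fold change of -0.68 ± 0.093 (SE, limma adjusted p = 0.0095), or -0.51 relative to the median of all genes, and the call held in all 16 alternative settings. Arpc5l, the alternative form, stood at 50.9 to 58.7 TPM across WT and 44.2 to 55.4 across Lyz2cre and was not called (log2 fold change -0.16, limma adjusted p = 0.525). Its groups overlapped.

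Arpc3 (chr5:122391878-122414184), a subunit lying against Arp3 in the complex, stood at 1038, 951 and 890 TPM across the WT libraries, 694, 700 and 637 across Lyz2cre and 645 in CD11ccre. The Cre libraries all lay below the WT libraries. Its log2 fold change was -0.50 ± 0.099 (SE, limma adjusted p = 0.0306). The call ended without WT replicate 1, WT replicate 2 or any 1 Lyz2cre library (adjusted p = 0.0684 to 0.112), held without WT replicate 3 (0.0382), and ended with median-of-ratios scaling (0.0998). Arpc3 overlaps the predicted gene Gm42829 on the same strand.

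The remaining subunits were not called in Lyz2cre. Arpc2, part of the backbone of the complex and the subunit with the highest mean TPM, stood at 851, 785 and 908 TPM across the WT libraries, 906, 855 and 864 across Lyz2cre and 824 in CD11ccre, with overlapping groups and a log2 fold change of 0.05 ± 0.094 (SE, limma adjusted p = 0.803). The sign of that value turned with the rescaling to protein-coding genes without mitochondrial genes (-0.07). Arpc4, its partner in the backbone, had a log2 fold change of -0.19 (limma adjusted p = 0.324). Arpc1b, the form of the Arpc1 subunit prevalent in blood cells, stood at 786, 681 and 396 TPM across the WT libraries and 686, 828 and 673 across Lyz2cre, WT replicate 3 lying far below the other libraries (log2 fold change 0.28 ± 0.25, SE, limma adjusted p = 0.523). Arpc1a stood at 71.1, 74.4 and 74.7 TPM across the WT libraries and 62.4, 59.9 and 63.1 across Lyz2cre, a gap without overlap that was not called (log2 fold change -0.25, limma adjusted p = 0.201). Whether the fall of one subunit differs from that of another was not tested.

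**Figure D3:**
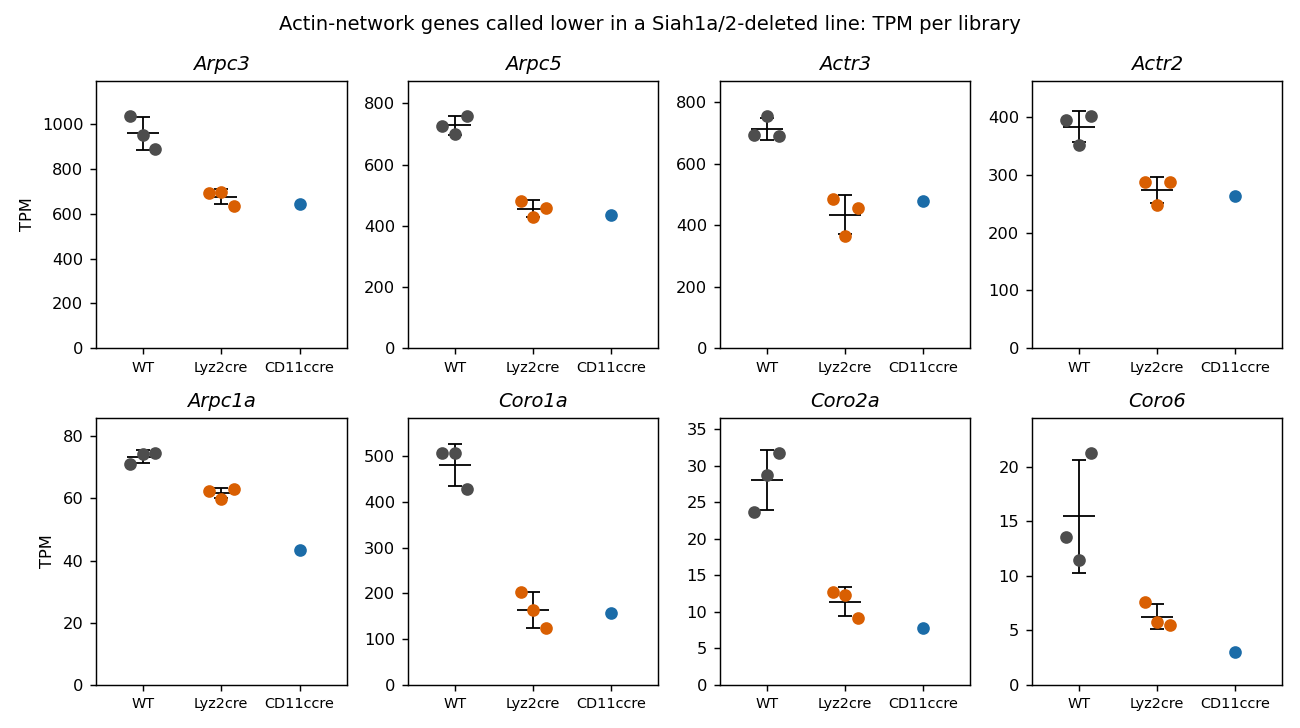
TPM per library (y axis, from 0) for the 8 genes called lower in Lyz2cre or CD11ccre, 1 panel a gene, with points for libraries and bars for the mean ± SD of the 3 WT and 3 Lyz2cre libraries. In every panel the 3 WT points lie above all 4 Cre points; for Coro1a the Cre points lie at 125 to 203 TPM and the WT points at 429 to 508 TPM.

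The 2 members that switch on the Arp2/3 complex, Was and Wasf2, were not called. Was, the WASP protein of blood cells, stood at 59.5, 50.1 and 45.5 TPM across the WT libraries, 45.7, 47.0 and 42.7 across Lyz2cre and 42.1 in CD11ccre, with overlap (log2 fold change -0.18 ± 0.14, SE, limma adjusted p = 0.458). Wasf2, a WAVE protein, stood at 16.9 to 24.2 TPM across WT and 17.9 to 21.9 across Lyz2cre.

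Actin itself was among the most abundant transcripts and neither gene was called. Actb stood at 5680, 5895 and 7379 TPM across the WT libraries, 6064, 6362 and 6221 across Lyz2cre and 6410 in CD11ccre, with a log2 fold change of -0.01 ± 0.12 (SE, limma adjusted p = 0.960). Its sign turned with median-of-ratios scaling (0.17). Actg1 stood at 3597, 3443 and 3611 TPM across the WT libraries, 3941, 3929 and 3766 across Lyz2cre and 4282 in CD11ccre. All Cre libraries were above all WT libraries, yet the log2 fold change of 0.13 ± 0.08 (SE, limma adjusted p = 0.378) did not pass. The proteins encoded by these genes are nearly identical, and both genes have pseudogenes. Whether the way the authors' quantification divided any shared reads bears on these values was not tested.

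Monomer-binding genes were the most abundant role. Tmsb4x (thymosin beta 4, which holds monomers in reserve) stood at 16944, 19590 and 20605 TPM across the WT libraries, 16837, 16893 and 16211 across Lyz2cre and 17119 in CD11ccre. The Lyz2cre libraries lay just below the WT range, with a log2 fold change of -0.19 ± 0.10 (SE, limma adjusted p = 0.292). In 5 of the 6 monomer-binding genes all Lyz2cre libraries lay below all WT libraries, the exception being Twf1. Over all tested genes this share was 23.3%. The median log2 fold change of the 6 was -0.21, against -0.16 for all tested genes, and none of the 6 passed the test. The nearest were Pfn1 (profilin 1, log2 fold change -0.41, limma adjusted p = 0.0612) and Twf2 (twinfilin 2, -0.62, 0.0647), named after their values were seen.

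Among the severing, capping and bundling genes none was called in Lyz2cre. Cfl1, the cofilin of non-muscle cells, stood at 1653, 1609 and 1406 TPM across the WT libraries, 1227, 1362 and 1180 across Lyz2cre and 1180 in CD11ccre. The Cre libraries were all below the WT libraries, but the log2 fold change of -0.31 ± 0.11 (SE, limma adjusted p = 0.129) did not pass. Gsn (gelsolin) lay at 54.1 to 78.5 TPM across WT and 66.4 to 84.7 across Lyz2cre. Capg, a macrophage capping protein, stood at 810, 731 and 530 TPM across the WT libraries, 651, 748 and 586 across Lyz2cre and 651 in CD11ccre, with overlap (log2 fold change -0.05 ± 0.18, SE, limma adjusted p = 0.905). That value also turned with median-of-ratios scaling (0.14).

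The capping protein subunits Capza1, Capza2 and Capzb had log2 fold changes of -0.16, -0.32 and -0.18, none called. Lcp1, the leukocyte plastin that bundles filaments, stood at 932, 847 and 1004 TPM across the WT libraries, 975, 954 and 1063 across Lyz2cre and 999 in CD11ccre (log2 fold change 0.11 ± 0.10, SE, limma adjusted p = 0.568). Its groups overlapped, and the value was -0.0096 after rescaling to protein-coding genes without mitochondrial genes. Vasp, which speeds filament elongation, stood at 326, 310 and 243 TPM across the WT libraries and 174, 216 and 146 across Lyz2cre without overlap and had the smallest p of the members not called (log2 fold change -0.72, limma adjusted p = 0.055), so it too is named after its value was seen. Fscn1, a bundler made by mature dendritic cells, stayed at 0 to 2.33 TPM and was not tested.

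The tropomyosins Tpm3 and Tpm4 lay lower in all 3 Lyz2cre libraries than in WT, without a call. Tpm3 stood at 468, 457 and 401 TPM across the WT libraries, 350, 366 and 329 across Lyz2cre and 334 in CD11ccre (log2 fold change -0.34 ± 0.10, SE, limma adjusted p = 0.0966). Tpm4 (log2 fold change -0.49, limma adjusted p = 0.0673) came near the threshold as well. Tpm1 was at 0.4 to 8.63 TPM over the 7 libraries and the untested Tpm2 at 0 to 0.99 TPM.

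Among class I myosins, which link membrane to filaments, the 4 tested genes were not called. Myo1f stood at 136, 123 and 116 TPM across the WT libraries, 172, 164 and 153 across Lyz2cre and 135 in CD11ccre. All Lyz2cre libraries lay above all WT libraries, with CD11ccre inside the WT range, and the log2 fold change was 0.38 ± 0.11 (SE, limma adjusted p = 0.0839), or 0.55 relative to the median of all genes. Myo1g, a class I myosin of blood cells, moved the other way without a call (log2 fold change -0.47, limma adjusted p = 0.0639). Of the class IX myosins, Myo9b stood at 28.5, 31.8 and 32.3 TPM across the WT libraries, 29.2, 27.2 and 25.5 across Lyz2cre and 21.02 in CD11ccre, with overlap (log2 fold change -0.17, limma adjusted p = 0.467).

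Of the myosins the pattern added, Myo18a stood at 20.5, 11.4 and 5.05 TPM across the WT libraries, 11.7, 9.30 and 9.86 across Lyz2cre and 7.34 in CD11ccre, with a wide WT spread (log2 fold change -0.06 ± 0.42, SE, limma adjusted p = 0.952). Myo10, the motor that travels to filopodium tips, had a mean under 1 TPM and was not tested. It stood at 0.05, 0.14 and 0.05 TPM across the WT libraries, 1.36, 1.13 and 0.46 across Lyz2cre and 3.62 in CD11ccre, each Cre library above each WT library. Without the filter on low values its log2 fold change was 2.10 in CD11ccre (limma adjusted p = 0.0365) and 0.85 in Lyz2cre (0.129). It was named after its values were seen.

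In the single CD11ccre library, assumed by the fit to vary like the other groups, 5 members were called lower than WT and 0 higher: Coro1a, Coro2a, Coro6, Arpc5 and Arpc1a. Among all tested genes 1.99% were lower and 0.895% higher, and at an unadjusted p below 0.05 the members numbered 19 lower and 1 higher, with 22.3% of all genes passing in either direction. The median of the 45 members was -0.35, against -0.29 for all tested genes. The library lay below the WT range for 30 members and above it for 1 (Actg1), against 50.5% and 13.0% of all genes. This comparison shares its WT libraries with the first, so the values are set side by side only.

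Coro1a had a log2 fold change of -1.60 ± 0.26 (SE, limma adjusted p = 0.0289) in CD11ccre, Coro2a -1.72 ± 0.27 (0.026) and Coro6 -2.0 ± 0.36 (0.0386). Arpc5 had -0.74 ± 0.13 (0.0363) and Arpc1a (chr5:145083830-145108761), at 43.3 TPM against 71.1 to 74.7 TPM in WT, -0.75 ± 0.15 (0.0468). Actr3, Arpc3 and Actr2 had log2 fold changes of -0.57, -0.57 and -0.54 without a call (limma adjusted p = 0.128, 0.0759 and 0.105). The calls of Coro6, Arpc5 and Arpc1a ended when any 1 WT or Lyz2cre library was left out (adjusted p = 0.0515 to 0.0931). Those of Coro1a and Coro2a ended without WT replicate 1 (0.0717 and 0.0542), WT replicate 2 (0.0739 and 0.0691), WT replicate 3 (0.0501 and 0.0518) or Lyz2cre replicate 2 (0.0564 and 0.0509). With median-of-ratios scaling only Coro1a and Coro2a were still called, and without the mean-variance trend none of the 5 was. The calls of Coro1a and Coro6 ended with no filter on low values, and that of Coro6 also with a pseudocount of 5.

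In the direct contrast the CD11ccre library lay above all Lyz2cre libraries for 4 members and below them for 23, against 15.7% and 39.0% of all tested genes. The test of CD11ccre against Lyz2cre called 0 of the 45 members in either direction by limma, where 0.0439% of all tested genes were higher and 0.0702% lower. At an unadjusted p below 0.05 it held 1 member, Arpc1a (log2 fold change -0.50, 95% interval -0.85 to -0.16, limma adjusted p = 0.769), against 6.10% of all genes. For Coro1a the difference between the lines was -0.03 with a 95% interval of -0.63 to 0.58, for Arpc5 -0.07 (-0.37 to 0.24), and for Coro6 -0.85 (-1.70 to 0.0060), so differences of these sizes were not resolved with 1 library.

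Around the members, 8 lists of other actin genes held 100 genes, of which 82 were tested. The lists were put together with earlier results of these data known. In Lyz2cre 4 of the 82 rose, 11 fell and 67 were not called, with a median log2 fold change of -0.10, where 2.17% of all tested genes were higher and 4.60% lower. The split was 7 higher and 5 lower with median-of-ratios scaling, and 4 and 19 with the protein-coding rescaling. Of the genes named below, Brk1, Fmnl1 and Myl12b lost their Lyz2cre calls under median-of-ratios scaling. Brk1, Fmnl1 and Evl lost them without Ftl1, Fth1, Chil3 and Lyz2. Without the mean-variance trend Brk1, Fmnl1, Evl, Myl12b, Flii and Lasp1 did, and with no filter on low values Abi3, Brk1, Fmnl1, Evl, Flii and Pls3. In CD11ccre 2 rose and 4 fell, where 0.895% and 1.99% of all tested genes were called, and the protein-coding rescaling gave 4 and 14. Among the 23 tested partners of WAVE, WASP and WASH, families that include the activators of the Arp2/3 complex, 1 rose and 2 fell in Lyz2cre. Cyfip2, a WAVE complex subunit, stood at 0.79, 1.33 and 1.06 TPM across the WT libraries, 9.32, 9.52 and 8.14 across Lyz2cre and 6.48 in CD11ccre. It rose in both lines with no overlap (log2 fold change 2.28 ± 0.22, SE, limma adjusted p = 0.00321, and 1.87, adjusted p = 0.0304). Its call in Lyz2cre held with any 1 library left out, and its call in CD11ccre ended in each of these 6 cases (adjusted p = 0.0515 to 0.0711).

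Abi3, another WAVE subunit gene, stood at 9.42, 15.1 and 12.4 TPM across the WT libraries, 4.44, 3.75 and 4.11 across Lyz2cre and 1.02 in CD11ccre. It fell in both lines without overlap (log2 fold change -1.36, limma adjusted p = 0.0163, and -2.69, 0.0102). In Lyz2cre it missed the threshold without WT replicate 2 or without Lyz2cre replicate 2 or 3 (up to 0.0669), while the CD11ccre call held with any 1 library left out. Brk1, the small WAVE subunit, fell in Lyz2cre from 319 to 351 TPM in WT to 203 to 255 TPM (log2 fold change -0.55, limma adjusted p = 0.0382), a call that was kept only without Lyz2cre replicate 2 among the 6 cases (up to 0.122 in the others).

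Of 10 tested formins and Ena/VASP genes, 1 rose and 2 fell in Lyz2cre. The formin Fmnl2 went from 0 to 0.2 TPM in WT to 2.74 to 3.44 TPM (log2 fold change 1.84, limma adjusted p = 0.0169), and was no longer called without any 1 of the Lyz2cre libraries (up to 0.0826). Fmnl1, the formin of leukocytes, fell from 163 to 207 TPM in WT to 118 to 132 TPM (log2 fold change -0.56, limma adjusted p = 0.044), and Evl, a relative of Vasp, from 296 to 347 TPM to 165 to 220 TPM (-0.74, 0.0242). Fmnl1 kept its call only without WT replicate 3 among the 6 cases (up to 0.146 in the others), and Evl lost it in 4 of the 6, without WT replicate 1 or 2 and without Lyz2cre replicate 2 or 3 (up to 0.0792). In CD11ccre Fmnl1 fell to 79.1 TPM (log2 fold change -1.24, limma adjusted p = 0.0205), no longer called once WT replicate 1 or 2 was dropped (up to 0.0632).

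Of 14 tested filament turnover genes 4 fell and none rose in Lyz2cre. Dstn, a severing relative of cofilin, stood at 549, 563 and 600 TPM across the WT libraries, 329, 303 and 353 across Lyz2cre and 343 in CD11ccre, without overlap. Its log2 fold change was -0.80 ± 0.10 (SE, limma adjusted p = 0.00726) in Lyz2cre, held with any 1 library left out, and -0.73 (0.0445) in CD11ccre, where it ended in all 6 cases (up to 0.0938). The adducin Add3 and the gelsolin relative Flii had log2 fold changes of -0.77 and -0.83 in Lyz2cre (limma adjusted p = 0.0188 and 0.0229), with calls lost in 4 of 6 (up to 0.0742) and 5 of 6 (up to 0.0881) leave-one-out cases.

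Among 9 tested crosslinkers and membrane linkers 2 rose and none fell in Lyz2cre. The plastin Pls3, a relative of the member Lcp1, went from 2.96 to 5.05 TPM in WT to 10.7 to 15.6 TPM (log2 fold change 1.40, limma adjusted p = 0.0189) and Lasp1, an actin-binding adaptor, from 57.6 to 66.7 TPM to 94.8 to 102 TPM (0.65, 0.0189). The Pls3 call was lost without Lyz2cre replicate 2 or 3 (up to 0.0788), and the Lasp1 call without WT replicate 1 or any 1 Lyz2cre library (up to 0.0814). Of the 4 tested non-muscle myosin II genes, Myl12b, a regulatory light chain, fell in both lines (log2 fold change -0.61, limma adjusted p = 0.0166, and -0.73, 0.0438), calls lost in 3 (up to 0.0669) and in all 6 (up to 0.0973) leave-one-out cases. None of the 7 tested integrin adhesion genes or the 3 of the SRF axis was called (limma lowest adjusted p = 0.0526 and 0.495 in Lyz2cre).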

How the data were processed

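Libraries were made with poly(A) selection and a strand-specific NEBNext kit and read from one end, per the labels' protocols. The authors deposited TPM values; behind them, per the submitters' processing notes, stand mm10 and the tools RSEM 1.3.1, STAR 2.7.0d and cutadapt 2.3. Not given in the sources used here: annotation release and strand setting. Depth cannot be read from TPM.

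The members, roles, gene lists and tests were chosen with earlier results of these data known. Log2(TPM + 1) of 11397 genes (mean of 1 TPM or more) was fitted with limma 3.58.1 in R 4.3.3: all 7 libraries in 1 fit, eBayes with a trend on the mean, residual degrees of freedom of 4 and prior ones of 3.35, and two-sided p-values with Benjamini-Hochberg adjustment over all genes and a threshold of 0.05. Leaving out a library lowers the residual degrees of freedom. Alternatives were pseudocounts of 0.1 and 5, no filter, a mean of at least 5 TPM, median-of-ratios scaling, 2 rescalings, no trend, the replicate block and left-out libraries.

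Full values are given for members called in any comparison and for the member with the highest mean TPM of each role. Related genes are named where called, up to 3 per list and direction. The genes of 1 related list, counted in the totals, are not reported here. Coordinates and overlaps come from GENCODE M21 (GRCm38), where all 57 members matched. Of the 45 tested members, 26 overlap another gene, 10 of them on the same strand. For a simulation, changes were added equally up and down to genes with a mean log2(TPM + 1) above 3, with no general shift. Recovery for lower genes, or under the shift seen here, was therefore not measured. Tested on simulated data for 11397 genes, the Lyz2cre comparison recovered 39% of changes of log2 size 1 and 88% of size 2, and the CD11ccre comparison 9% and 73%; over both sizes together, 10 and 5 unchanged genes were called as well.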

Additional observations from a re-analysis of the deposited data

How the results depend on the processing

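Against 7 members called lower in Lyz2cre, 3 were called with no filter on low values, 3 with median-of-ratios scaling, 3 without Ftl1, Fth1, Chil3 and Lyz2, 3 without the mean-variance trend, 16 with protein-coding genes rescaled without mitochondrial genes, and 2 to 6 with 1 WT or Lyz2cre library left out; Coro1a and Arpc5 were the 2 genes called in every one of the 16 alternatives. The count of members called higher went from 0 to 1 (Myo1f) with median-of-ratios scaling and without the 4 abundant genes. Against 5 called lower in CD11ccre there were 3, 2, 2, 0 and 13 under the same 5 settings and 0 to 2 with 1 library left out, and 1 called higher (Myo10) with no filter and with the protein-coding rescaling. The same replicate number did not pair the libraries (correlations of deviations -0.015, 0.043 and 0.066); with the replicate block 4 members were lower in Lyz2cre, 3 of the 7 (Coro1a, Coro2a and Arpc5) and Vasp, the calls of Actr2, Actr3, Arpc3 and Coro6 having ended (adjusted p = 0.0615, 0.0592, 0.0589 and 0.0838), and 0 in CD11ccre, where the related lists also had 0 calls. Signs turned in Lyz2cre, all without a call, for Actb (0.17 with median-of-ratios scaling, 0.15 without the 4 genes, -0.086 to 0.10 with 1 library left out), Capg (0.14, 0.12, -0.23 to 0.080), Myo18a (0.11, 0.095, -0.53 to 0.38), Myo9b (0.0080 with median-of-ratios scaling), Lcp1 (-0.0096 with the protein-coding rescaling) and Arpc2 (-0.068 with it, -0.0062 to 0.099 with 1 library left out). The causes were not tested. TPM keep no depth, so precision rests on the spread within the 3 WT and 3 Lyz2cre libraries, drawn toward a trend on the mean over all tested genes. The single CD11ccre library adds no spread of its own.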
